A study of Mus musculus with 15 samples.

Results

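Exc_22 is one of the 26 fine excitatory neuron clusters that the authors defined in the mouse prefrontal cortex (PFC) by single-cell RNA sequencing. Its members are the cells that carry this name in the deposited cell annotation, 547 of the 35360 cells retained by the authors and of the 20377 cells placed in an excitatory cluster. Of these cells, 429 came from the 12 libraries of adult mice (P60 in the study, 8 to 10 weeks in the labels) and 118 from the 3 libraries of P21 mice. The study gives P60 as the age at catheter implantation, before self-administration, so by its account the adult tissue was taken later. Each adult library pooled the PFC of 2 male C57BL/6N mice that had self-administered cocaine or saline intravenously, taken at the end of the maintenance phase, after 48 h of withdrawal or after 15 days of withdrawal, with 2 libraries for each of the 6 groups. The P21 mice received neither. Libraries are numbered as in the labels: saline 2 and 3 (maintenance), 5 and 7 (48 h), 11 and 12 (15 days), and cocaine 1 and 4, 6 and 8, 9 and 10 at the same time points.

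Excitatory pyramidal neurons of the neocortex release glutamate and are grouped by the layer that holds their cell body and by where their axon goes. Intratelencephalic cells project within the cortex and to the striatum, pyramidal tract cells of layer 5 project to the brainstem and spinal cord, and corticothalamic cells of layer 6 project to the thalamus. Transcription factors such as Cux2 (upper layers), Etv1 and Fezf2 (layer 5) and Foxp2 (layer 6) mark these classes. The first weeks after birth are a period of neurite growth, synapse formation and pruning in the rodent PFC, and maturation continues into adulthood.

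The number of Exc_22 cells per library ranged from 7 to 102 at P60 and from 21 to 61 at P21. Libraries 1, 2 and 6 held fewer than 10 cells each and entered no test of genes, which left 9 P60 libraries (5 saline and 4 cocaine). The summed unique molecular identifiers (UMIs) of Exc_22 were 233668 to 1987792 in those 9 libraries and 318510 to 953712 in the P21 libraries. Exc_22 cells were deep: their median UMI count was above that of the other excitatory cells in 15 of 15 libraries, by 1.13- to 1.89-fold. Of the 547 cell barcodes, 26 also occurred in another library, and none was shared between Exc_22 cells of different libraries. At P21, 7 Exc_22 cells carried another broad class in the annotation (5 astrocyte and 1 microglia in P21 library 1, 1 inhibitory in P21 library 2), whereas all P60 cells were classed as excitatory. One label gives the nucleus accumbens as the tissue and the titles give the PFC. Among the markers of striatal medium spiny neurons, Drd2 was at 0 in Exc_22 of every tested P60 library, and the summed level of the 8 markers was 36.3 to 73.8 CPM (UMIs of a gene per 1000000 summed UMIs).

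Exc_22 cells carried the excitatory programme. Slc17a7, the vesicular glutamate transporter VGLUT1, was at 471 ± 42.5 CPM (SD, n = 9 P60 libraries). Gad2, which makes GABA in inhibitory neurons, was at 0.395 ± 0.685 CPM at P60 and at 2.30, 23.7 and 5.72 CPM in P21 libraries 1, 2 and 3. After each cell was thinned to 2000 UMIs, Slc17a7 was seen in 56.4% of the 429 cells (95% exact interval 51.6 to 61.2%, counting error only) against 4.23% of endothelial cells. Without thinning Slc17a7 was seen in 99.5% of Exc_22 cells, and Gad2 in 0.932% of them against 0.869% of endothelial cells, at median depths of 20421 UMIs for Exc_22 and 4516 for endothelial cells.

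The genes that set Exc_22 apart from the other 25 excitatory clusters are described here without a test, because the clusters were built from these same cells. Of 5652 genes at 20 CPM or more in Exc_22, 217 (3.84%) had a higher mean in Exc_22 than in every other excitatory cluster. Of 6091 genes at 20 CPM or more in Exc_22 or in the median cluster, 51 (0.837%) were at least 3-fold above the median of the other clusters and 42 (0.690%) at least 3-fold below it.

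Deptor, an inhibitor of the mTOR kinase and a layer 5 marker, lies at chr15:54943872-55090826 on the plus strand (mouse build NCBIM37, also called mm9). It was at 208 ± 26.8 CPM in Exc_22 and between 170 and 256 CPM in each of the 9 P60 libraries. The next cluster was Exc_25 at 114 CPM, and the median of the others was 16.3 CPM. Exc_22 was above Exc_25 in 9 of 9 libraries. In thinned cells Deptor was detected in 32.2% of Exc_22 cells (27.8 to 36.8%), 21.2% of Exc_25 cells, 5.11% of all other excitatory cells and 1.07% of endothelial cells. The unthinned shares were 95.3%, 82.2%, 26.8% and 2.22%.

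The same order, Exc_22 first and Exc_25 second, held for several genes of other functions. Fam3c (chr6:22256520-22306243, minus strand), which encodes a secreted cytokine-like protein, was at 179 ± 45.4 CPM in Exc_22 against 99.1 CPM in Exc_25. Il1rapl2 (chrX:134105147-135381485, plus strand), a synaptic relative of the interleukin-1 receptor, was at 32.9 ± 5.99 CPM against 21.5 CPM, with a median of 1.00 CPM over the others. Sstr2, a somatostatin receptor, was at 97.0 ± 19.8 CPM against 71.9 CPM, and Chga, a dense-core vesicle granin, at 411 ± 62.5 CPM against 287 CPM. Utrn, the dystrophin relative utrophin, was at 38.3 ± 10.7 CPM against 24.5 CPM. For Il1rapl2 and Chga Exc_22 exceeded Exc_25 in 9 of 9 libraries, and for Fam3c, Sstr2 and Utrn in 8 of 9.

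Some leading genes had another runner-up or were shared with a distant cluster. Egln3 (chr12:55279968-55304847, minus strand), an oxygen-sensing prolyl hydroxylase, was at 31.0 ± 11.7 CPM in Exc_22, 19.8 CPM in Exc_26 and 0.886 CPM in the median cluster. Foxo1, a transcription factor held in check by insulin signalling, was at 27.4 ± 11.2 CPM, followed by Exc_4 at 19.6 CPM. Pcsk1, a convertase that cuts prohormones, was at 22.7 ± 5.35 CPM, followed by Exc_11 at 16.3 CPM. Etv1, the layer 5 transcription factor, was at 189 ± 31.3 CPM, 7.52-fold the median cluster, yet it was higher in 5 clusters and reached 705 CPM in Exc_21. Rprm, a p53 target widely used as a layer 6 marker, was at 421 ± 64.7 CPM, 13.2-fold the median and far from the 2212 CPM of Exc_19. Arhgap25, a GTPase-activating protein, was at 44.5 ± 10.5 CPM against a median of 0.771 CPM, and Exc_19 was again higher at 90.7 CPM.

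Among the low genes, Synpr, the synaptic vesicle protein synaptoporin, was at 3.36 ± 3.01 CPM in Exc_22 against 264 CPM in the median cluster and 7.27 CPM in the lowest of the others. Cux2 was at 0.431 ± 0.867 CPM against a median of 25.7 CPM. Meis2, a homeobox factor, was at 17.6 ± 8.61 CPM against 177 CPM, Nav1, a microtubule-binding neuron navigator, at 6.33 ± 4.29 CPM against 69.4 CPM, and Ccnd2, a cyclin, at 4.91 ± 3.801 CPM against 89.7 CPM. Exc_22 ranked last of 26 for these 5 genes, but other clusters were low too for Ccnd2 and Cux2. Ccnd2 was at 4.99 CPM in Exc_14, and Exc_22 was above Exc_14 in 4 of 9 libraries. Cux2 was at 0.688 CPM in Exc_26 and 1.58 CPM in Exc_25. Cdh13, a cadherin anchored by a lipid, was at 4.73 ± 3.96 CPM against 52.3 CPM.

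**Figure D1:**
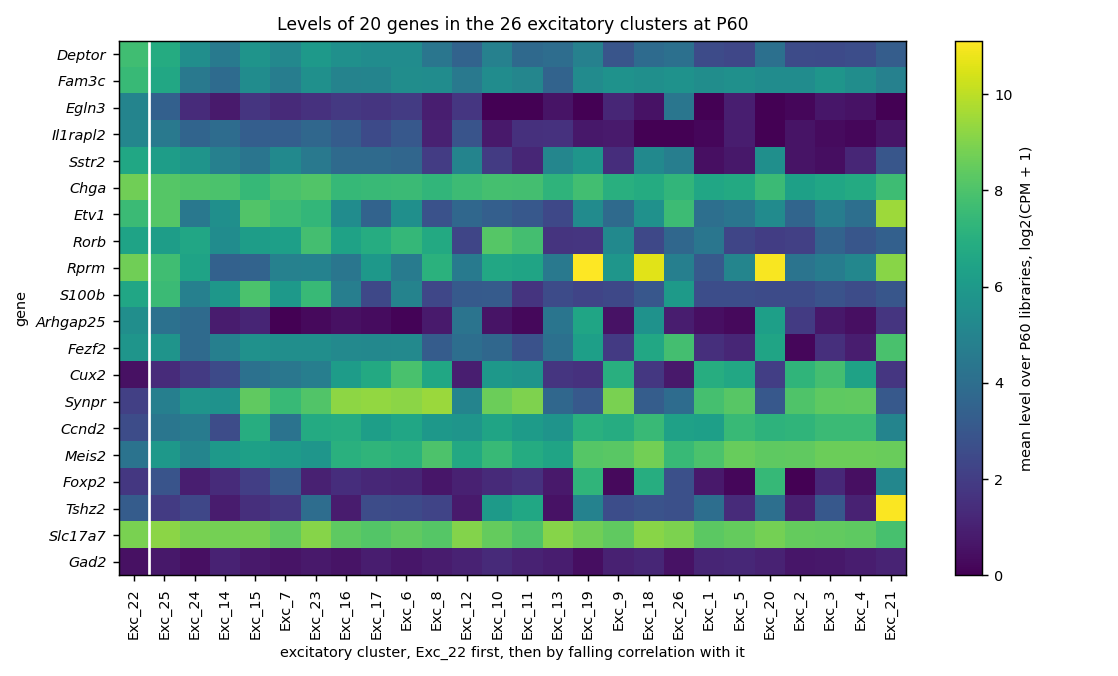
Mean level over P60 libraries of 20 genes (rows) in the 26 excitatory clusters (columns, Exc_22 first and the others by falling correlation with it), as log2(CPM + 1) on a colour scale. Deptor, Fam3c, Il1rapl2, Egln3, Sstr2 and Chga are at their highest in Exc_22, and Synpr and Cux2 at their lowest.

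The layer markers gave a mixed picture. Over all 6091 genes, 0.837% were at least 3-fold above the median of the other clusters. Of the 8 layer 5 intratelencephalic markers 3 reached 20 CPM in Exc_22 or in the median cluster, and of these Deptor and Etv1 were at least 3-fold above the median. Rorb, a nuclear receptor of layers 4 and 5, was at 86.6 ± 22.5 CPM, ranking 8 of 26, with Exc_10 at 292 CPM. Batf3 was at 18.3 CPM, 12.9-fold its median of 1.42 CPM, while Col6a1 was at 2.32 CPM, Tcap at 3.10 CPM and Hsd11b1 at 3.19 CPM. Of the 2 pyramidal tract markers that reached 20 CPM none was 3-fold above the median, and Bcl11b and Pou3f1 were at 2.29 and 0.452 CPM against 274 and 91.2 CPM in Exc_26. Among the layer 6 corticothalamic markers 2 reached 20 CPM, Rprm and Hs3st4, both at least 3-fold above the median, while Foxp2 was at 2.52 CPM and Syt6, Ctgf and Sla at 0 in all 9 libraries. For the near-projecting marker Tshz2 the level was 8.37 CPM against 2099 CPM in Exc_21. The summed level of the 8 layer 5 intratelencephalic markers was 467 to 594 CPM in Exc_22 and that of the 7 layer 2/3 markers in the files 26.6 to 64.6 CPM, compared with 207 to 366 CPM and 326 to 430 CPM in the other excitatory cells of the same libraries. The 3 highest layer 5 intratelencephalic markers of Exc_22, Deptor, Etv1 and Rorb, were at 114, 286 and 70.7 CPM in Exc_25. In Exc_23 they were at 62.95, 161 and 217 CPM, so high levels of these markers were not particular to Exc_22. The sum of the 8 corticothalamic markers, most of it Rprm at 421 CPM, was 358 to 551 CPM in Exc_22 and 254 to 434 CPM in the other excitatory cells, and that of the 9 pyramidal tract markers was 272 to 571 CPM against 354 to 558 CPM, so that both sums overlapped. The 7 near-projecting markers summed to 136 to 238 CPM against 332 to 447 CPM, and the 8 layer 6 intratelencephalic markers to 14.2 to 49.2 CPM against 109.9 to 261 CPM. Those of layer 6b, 7 in number, were at 3.32 to 17.3 CPM against 8.65 to 25.7 CPM.

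Other gene groups held few genes that differed 3-fold. The same was true of all 6091 genes, of which 0.837% were that far above the median cluster and 0.690% that far below. Pcp4, a calmodulin regulator, was at 5139 ± 509 CPM in Exc_22 against 1048 CPM in the median cluster and was the 1 member of 17 calcium buffers and sensors at that distance. Cplx1 (complexin 1, which clamps vesicle fusion) was at 229 ± 32.2 CPM against 75.1 CPM, Cryab (a small heat shock protein) at 128 ± 12.1 CPM against 20.6 CPM, and Nptx2 (a pentraxin that gathers AMPA receptors) at 57.9 ± 12.3 CPM against 12.5 CPM. On the low side, Gnal, the olfactory-type G protein, was at 11.6 ± 5.57 CPM against 45.4 CPM, and Lrrtm1, a synaptic adhesion protein, at 26.3 ± 12.5 CPM against 85.7 CPM. None of 71 oxidative phosphorylation genes, 14 GABA receptor genes or 14 sodium and calcium channel genes at 20 CPM or more was 3-fold away. These counts are near the shares of all genes and are not particular to these groups.

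Over 25989 genes the clusters most like Exc_22 at P60 were Exc_25 (Pearson r = 0.994 of log2(mean CPM + 1)), Exc_24 (0.989) and Exc_14 (0.985). These are correlations across genes of cells from the same libraries, so they describe likeness only. At P21, where cells had been named by their likeness to the P60 clusters, the profile of Exc_22 was closest to P60 Exc_25 (r = 0.984), ahead of P60 Exc_22 (r = 0.982). Several leading genes of P60 Exc_22 also led at P21, which is no independent result because likeness to the P60 clusters named these cells: Deptor (160 against a median of 17.9 CPM), Fam3c (291 against 52.7), Egln3 (42.1 against 1.09), Il1rapl2 (41.3 against 1.87), Sstr2 (120 against 19.2) and Chga (350 against 179) were each higher in Exc_22 than in any other P21 excitatory cluster.

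Exc_22 made up 3.03 ± 1.16% of the excitatory cells in the 6 saline P60 libraries and 1.90 ± 0.552% in the 3 P21 libraries. The saline libraries spanned 1.90 to 5.26%, highest in library 7, and the P21 libraries 1.36 to 2.46%, so the ranges overlapped. The difference of 1.13 percentage points did not pass an exact two-sided permutation test (p = 0.131, 84 splits, smallest possible p = 0.0119). For cocaine against saline within time points the mean difference was -0.586 points (exact two-sided permutation p = 0.519, 216 regroupings). The median UMI count per Exc_22 cell was 16716 to 23202 in the saline P60 libraries and 10618 to 16719 in the P21 libraries, a difference of 5473 (exact two-sided permutation p = 0.0238), and 6 of 9 libraries left out singly took p above the threshold, up to 0.143.

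The comparison of P60 saline with P21 asked what changed in these neurons between the juvenile and adult PFC, and it gave large changes in both directions. Growth cone and neurite genes, immediate early genes and DNA methylation enzymes were among those lower at P60, and the vesicle fusion gene Snap25 and the calcium sensor gene Vsnl1 among those higher. With 5 P60 saline and 3 P21 libraries, edgeR's quasi-likelihood test with Benjamini-Hochberg adjustment (threshold 0.05 and a change above 1.5-fold) called 1334 of 6804 genes (19.6%), 533 higher at P60 (7.83%) and 801 lower (11.8%). Among all genes tested, 1849 (27.2%) had library values that did not overlap between the ages, and among the called genes 1068. By the study's account the saline adults were older than P60 when taken, and they came from 3 time points. The labels give no batch, and age cannot be told apart from the preparation of the P21 libraries or from the saline self-administration of the adults. Nor can it be told apart from how the cells were named, by clustering at P60 and by likeness to P60 clusters at P21. The P21 Exc_22 profile was closer to P60 Exc_25 (r = 0.984) than to P60 Exc_22 (r = 0.982). This limit of naming holds for the interaction with age as well.

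The largest rise without overlap was in Tnnt2 (chr1:137737452-137748837, plus strand), which encodes cardiac troponin T. It was at 69.7, 92.3, 51.9, 73.0 and 59.7 CPM in saline libraries 3, 5, 7, 11 and 12 and at 8.04, 3.39 and 2.86 CPM in the P21 libraries. Every P60 library was far above every P21 library, and the log2 difference was 3.51 ± 0.35 (SE, edgeR adjusted p = 1.64e-07). Ass1, argininosuccinate synthase of the urea and citrulline cycles, rose from 9.89 ± 4.04 to 66.9 ± 13.0 CPM (log2 2.70 ± 0.30, adjusted p = 4.38e-07). Gpr83, a neuropeptide receptor, had 3 UMIs at P21 and 85 at P60, a ratio of 10.98 (95% counting interval 3.63 to 54.3).

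Other genes among the 12 largest rises without overlap were Batf3, a transcription factor and layer 5 marker (log2 2.26 ± 0.56), Blnk, an adaptor of B cell receptor signalling (2.14 ± 0.33), Gstt1, a glutathione transferase (1.99 ± 0.49), and Incenp, a subunit of the chromosomal passenger complex (1.86 ± 0.26). Jsrp1, Kbtbd5, H2-T22, Gm12216 and 1190007F08Rik completed the group with log2 differences from 1.90 to 2.36. H2-T22 is a class I histocompatibility gene with close relatives, and reads may be split between them.

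Of the 12 largest falls without overlap 3 belonged to the list of growth cone and neurite genes, namely Marcksl1, Cd24a and Tubb2b. Marcksl1 (chr4:129190825-129193229, plus strand), an actin-binding protein of growth cones, was at 43.1, 9.23, 15.9, 8.94 and 7.03 CPM in the saline libraries and at 273, 298 and 475 CPM at P21. The P21 libraries all stood above, and the log2 difference was -4.56 ± 0.39 (adjusted p = 6.36e-05). Cd24a, a surface sialoglycoprotein of immature neurons, had 1 UMI at P60 against 45 at P21, a P21 to P60 ratio of 116 (95% counting interval 19.8 to 4685). Tubb2b, a tubulin of migrating neurons, fell from 33.6 ± 9.41 to 1.25 ± 1.17 CPM, and Nav1 from 72.8 ± 26.9 to 4.55 ± 3.28 CPM. The histone genes H2afx, H2afj and Hist1h2bc fell by 3.07, 3.09 and 3.04 on the log2 scale, and histone genes have near copies that can share reads. For H2afx, P60 cocaine libraries 9 and 10, which did not enter this comparison, were at 38.3 and 25.7 CPM, inside the P21 range of 22.9 to 82.7 CPM, and with all P60 libraries its difference was -1.72 (edgeR adjusted p = 0.0807). Igsf21, an immunoglobulin-family adhesion protein, Ier2, an immediate early gene, Nov, a secreted matricellular protein, and Tmem203, a membrane protein, fell by 2.43 to 2.76.

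Fabp7, a fatty acid-binding protein of radial glia and astrocytes, fell by 2.99 on the log2 scale (adjusted p = 0.000123). The summed level of 6 astrocyte markers in Exc_22 was 609 to 737 CPM in the saline libraries and 830 to 1212 CPM at P21, and that of 7 microglia markers was 44.0 to 57.4 CPM against 22.9 to 169 CPM. Most of the astrocyte sum was Slc1a2, a glutamate transporter, which fell from 955 ± 193 to 430 ± 38.4 CPM, whereas Aldoc, a glycolytic aldolase, rose from 69.8 ± 64.9 to 237 ± 27.8 CPM. Gja1 and Aqp4, defining markers of astrocytes, were at 0.818 and 0.176 CPM at P60 and at 5.36 and 0.766 CPM at P21. The summed level of 7 inhibitory neuron markers was 0 to 14.2 CPM in the saline libraries and 18.4 to 71.1 CPM at P21, without overlap, highest in P21 library 2, where 1 cell was classed as inhibitory. In the other excitatory cells that sum was 2.01 to 23.1 CPM at P60 and 39.9 to 46.4 CPM at P21. None of the 7 passed the filter on low counts, with Pvalb at 0 in Exc_22 of every tested P60 library and Lhx6 at 0 in every P21 library. The sum of the 8 striatal medium spiny neuron markers was 44.0 to 73.8 CPM in the saline libraries and 130 to 197 CPM at P21. The part of these markers in the age result was not tested beyond leaving out cells of another class. Without the 7 P21 cells of another class, 1317 genes were called, 1237 of them shared, and Fabp7 and H2afj no longer passed the filter on low counts.

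**Figure D2:**
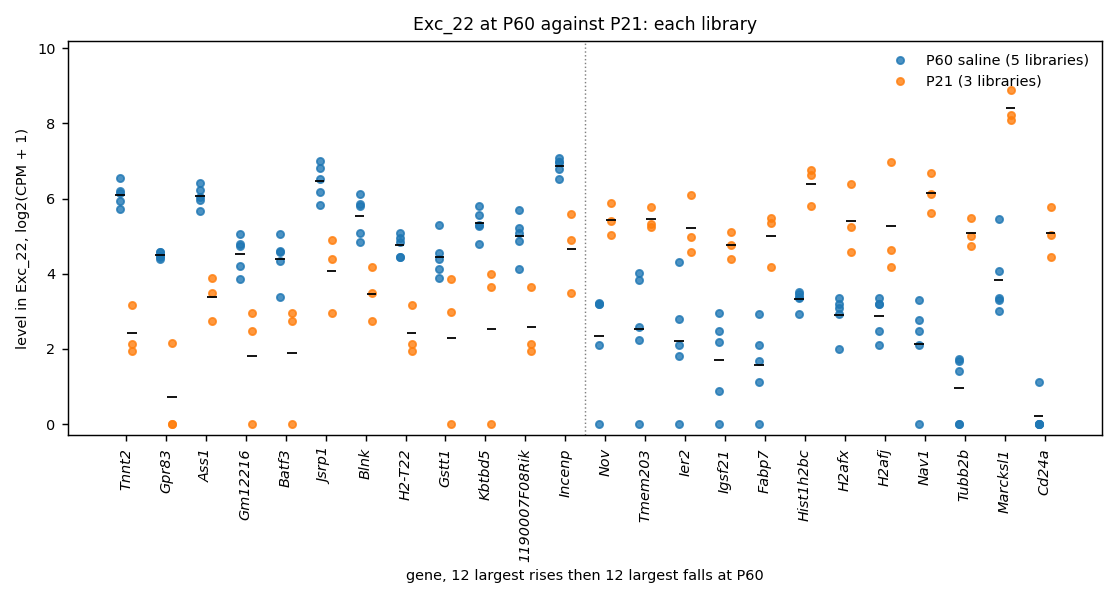
Level in Exc_22 of the 12 largest rises and the 12 largest falls at P60 without overlap, as log2(CPM + 1), with 1 point per library (blue, 5 P60 saline libraries, orange, 3 P21 libraries) and a bar at the mean. The points of the 2 ages are separate for each gene shown.

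By group, 10 of 27 tested growth cone and neurite genes were lower and 0 higher, against 11.8% lower and 7.83% higher of all genes tested. Their median log2 difference was -0.29 against -0.02 over all genes tested. Gap43, a protein of growing axon endings, fell by 0.95 ± 0.18, Dpysl2 (collapsin response mediator CRMP2) by 1.06 ± 0.12 and Fscn1 (fascin) by 1.18 ± 0.18 on the log2 scale. Stmn1, Tmsb4x and Tmsb10, the 3 highest members of this list, were not called. Of 15 immediate early genes 8 were lower and 0 higher (median -0.84), against the same shares of all genes. Fos was at 83.0, 102, 56.9, 104 and 156 CPM in the saline libraries and at 178, 264 and 166 CPM at P21, with no overlap, a fall of 0.90 ± 0.28 (adjusted p = 0.0376). Median mitochondrial shares of Exc_22 cells were 1.89 to 2.21% in the saline P60 libraries and 2.84 to 3.07% at P21, and their part in these differences was not tested.

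Chromatin genes leaned the same way, with 9 of 30 lower and 2 higher (median -0.35). Over all genes tested 11.8% were lower and 7.83% higher, so the share called higher was near that of all genes. Dnmt3a, a de novo DNA methyltransferase, was at 46.5, 13.8, 39.3, 36.5 and 35.1 CPM in the saline libraries and at 80.4, 139 and 172 CPM at P21. The ages did not overlap and the log2 difference was -1.67 ± 0.24 (adjusted p = 4.1e-05). Tet1 and Tet3, which oxidise methylcytosine, fell by 1.54 and 0.83 on the log2 scale, and Chd3, a remodeller, by 1.26. Ezh1, a histone methyltransferase of the polycomb complex, and Prmt1, an arginine methyltransferase, rose by 0.71 and 1.06. Several of these genes were named by the study from these same samples, so the direction of this list is not independent evidence.

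Synaptic genes moved in both directions, where 7.83% of all genes tested were called higher and 11.8% lower. Of 25 vesicle release genes 3 were higher and 6 lower. Snap25, a core fusion protein, rose from 3681 ± 100 to 6315 ± 714 CPM (log2 0.87 ± 0.11, adjusted p = 7.82e-06), with Syt5 and Rims3. Slc17a7, Syn1, Syt7, Syt13, Rab3b and Unc13a fell. Of 17 calcium buffers and sensors 3 rose, among them Vsnl1 (visinin-like 1, from 1093 ± 61.3 to 2379 ± 292 CPM), and 5 fell, among them Camk4 and Nrgn. Of 8 metabotropic glutamate receptor and scaffold genes 4 were lower (Grm5, Grm7, Homer2 and Shank2). The 5 of 31 potassium channel genes, 3 of 18 axon guidance genes and 2 of 16 genes of ionotropic glutamate receptors and auxiliary proteins (Grin1, a receptor subunit, and Nptx2) that were lower are shares near the 11.8% of all genes tested. For adhesion genes the counts were 1 higher and 7 lower of 32. Gabrd, the delta subunit of extrasynaptic GABA-A receptors, rose by 0.84 ± 0.28. It was the 1 of 14 GABA receptor genes called, a share near that of all genes called higher.

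Of 71 oxidative phosphorylation genes 7 were higher at P60 and 2 lower, with a median of 0.29 against -0.02 over all genes tested, and the share called higher was near the 7.83% of all genes. Among the 7 were Ndufs1 and Ndufv1 of complex I, Sdha of complex II, Uqcrc1 and Uqcrc2 of complex III and Atp5g3 of the ATP synthase (log2 0.61 to 0.90), and the lower pair was Uqcrfs1 and Cox5a. Of 16 cholesterol synthesis genes 1 was higher (Fdps) and 2 lower, shares near the 7.83% and 11.8% of all genes. Among the lower was Insig1, a sterol sensor partner (80.9 ± 27.9 to 13.6 ± 3.90 CPM). Of 14 heat shock genes only Hspa1a was called, higher at P60 (log2 2.88 ± 0.87), just inside the threshold, again near the share of all genes.

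Layer factors and leading genes of Exc_22 included called genes in both directions. Of 21 tested layer transcription factors 7 were lower at P60 (among them Fezf2, Tbr1, Bhlhe22, Lmo3, Bcl11a and Meis2) and Id2 was higher. The shares over all genes tested were 11.8% lower and 7.83% higher. Fam3c fell by 0.62 ± 0.16 and Rprm by 0.82 ± 0.14 on the log2 scale, whereas S100b, a calcium-binding protein, rose by 1.04 ± 0.20, Pcsk1 by 1.41 ± 0.40 and Arhgap25 by 0.86 ± 0.27. Ighg2c, an immunoglobulin constant-region gene with near-identical relatives, rose by 1.70 ± 0.32. Deptor was at 256, 203, 207, 236 and 212 CPM in the saline libraries and at 173, 152 and 154 CPM at P21. Its log2 difference of 0.54 ± 0.14 had an adjusted p of 0.00669 by edgeR but was under 1.5-fold, and Etv1 likewise (-0.55 ± 0.14). Il1rapl2, Egln3, Sstr2 and Utrn had adjusted p from 0.217 to 0.576.

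Whether the change with age differed in Exc_22 was tested against the summed counts of all other excitatory cells in the same 8 libraries. The interaction test called 91 of 12575 genes (0.724%), 34 with a higher value in Exc_22 (0.270%) and 57 with a lower one (0.453%). Against the 3 most similar clusters in place of all others 33 genes were called, of which 21 were shared. Rorb (chr19:19005095-19185686, minus strand) was the clearest layer gene. In Exc_22 it was at 79.7, 64.6, 105, 70.8 and 121 CPM in the saline libraries and at 79.3, 149 and 163 CPM at P21. In the other excitatory cells it was at 43.3, 41.5, 69.1, 76.1 and 91.8 CPM against 26.7, 34.0 and 42.9 CPM. The Exc_22 values overlapped between the ages and those of the other cells overlapped at their edge, and the interaction was -1.36 ± 0.17 (adjusted p = 1.42e-11). The other cells are a sum over clusters in which Rorb ranged from 2.17 CPM (Exc_13) to 292 CPM (Exc_10) at P60. The part of the mix of clusters in each library in this and the other interactions was not tested.

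Of 28 growth cone and neurite genes tested for the interaction 3 were called, all lower in Exc_22 (Marcksl1, Tubb2b and Cd24a), and the median of the list was 0.02, as over all genes. Marcksl1 went from 349 ± 110 to 16.9 ± 15.1 CPM in Exc_22 and from 228 ± 10.7 to 33.4 ± 7.62 CPM in the other cells (interaction -1.88 ± 0.23). For Tubb2b the interaction was -3.02 ± 0.48 and for Nav1 -2.17 ± 0.30. Hsd11b1, which regenerates active glucocorticoid, was at 29.4 ± 12.4 CPM in P21 Exc_22 and at 3.01 ± 2.43 CPM at P60, while the other cells were at 5.61 and 4.03 CPM (interaction -2.60 ± 0.50). Epha4, an ephrin receptor, Npy1r, a neuropeptide Y receptor, and Kcnk2, a leak potassium channel, were also called lower.

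Among the higher interactions Cplx1 was at 202 ± 25.8 CPM at P21 and 230 ± 16.6 CPM at P60 in Exc_22, against 121 ± 12.6 and 87.4 ± 15.2 CPM in the other cells (0.78 ± 0.13, adjusted p = 4.21e-06). Arhgap25 (1.52 ± 0.27), Cryab (0.92 ± 0.16) and Kcna1, a voltage-gated potassium channel (0.62 ± 0.16), were called too. The myelin genes Mbp and Mobp had interactions of 1.23 and 1.82. For Mbp the level in the other excitatory cells was 169.5 ± 26.1 CPM at P21 and 58.9 ± 22.02 CPM at P60, and in Exc_22 it was 108 ± 40.8 and 90.9 ± 22.6 CPM. The summed level of 7 mature oligodendrocyte markers in the other excitatory cells was 310 to 670 CPM at P21 and 57.4 to 160 CPM at P60, and its part in these 2 calls was not tested. The largest interactions belonged to genes with few UMIs, such as Syt6, a synaptotagmin of layer 6, with 0 UMIs in P60 saline Exc_22 and 15 at P21, at least 12.9-fold lower at P60 with the floor set at 3 counts over the group (the 95% counting interval starts at 9.25-fold). Without the P21 cells of another class its interaction had an adjusted p of 0.0588.

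**Figure D3:**
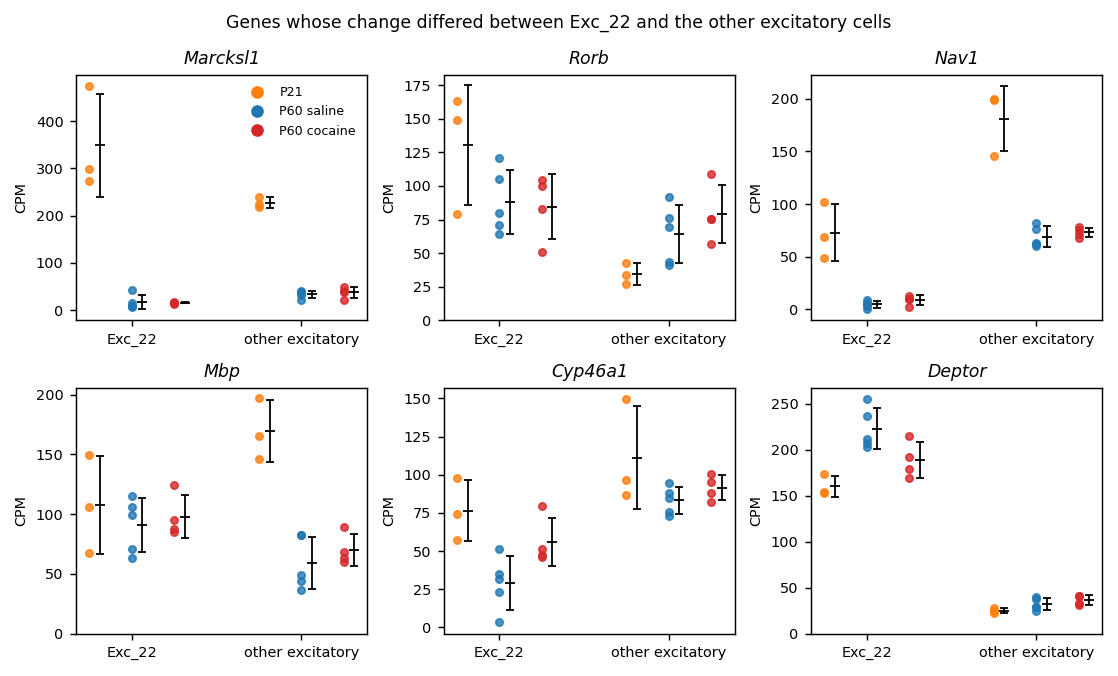
Level (CPM, linear axes) of 6 genes in Exc_22 and in the other excitatory cells, with 1 point per library (orange, 3 P21, blue, 5 P60 saline, red, 4 P60 cocaine) and the mean ± SD beside each set. Marcksl1 and Nav1 fell further in Exc_22 as a ratio of P60 to P21, the mean of Rorb is lower at P60 in Exc_22 and higher at P60 in the other cells, and Deptor is several-fold higher in Exc_22 at both ages.

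Cocaine was compared with saline at each time point in a fit over the 9 P60 libraries with a mean for each group. At the end of maintenance (library 4 against library 3) 0 of 8780 genes were called by edgeR (0%), with 577 at an unadjusted p below 0.05, and DESeq2 called 0. At 48 h (library 8 against 5 and 7) 0 were called (0%), with 525 at an unadjusted p below 0.05, and DESeq2 called 0. Here a lone library was assumed to vary like the other groups. In counts simulated with 2-fold changes the same tests recovered 7% and 22% of the changed genes, so most changes of that size were not detectable with these libraries.

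At 15 days of withdrawal (libraries 9 and 10 against 11 and 12) 99 of 8780 genes were called (1.13%), 98 higher after cocaine (1.12%) and 1 lower (0.0114%), while DESeq2 called 6. The lower gene was Nmt1, an N-myristoyltransferase, at 76.6 and 75.05 CPM after cocaine and 113 and 141 CPM after saline (log2 -0.70 ± 0.17, adjusted p = 0.021). The largest rises were in Cd74, the invariant chain of class II histocompatibility molecules, Tshz2, a zinc finger factor, H2afx, a histone variant of DNA damage signalling, Akr7a5, an aldehyde reductase, and Fbxl15, an F-box protein.

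Cd74 had 29 UMIs after cocaine and 0 after saline, at least 7.47-fold higher with the floor of 3 counts over the group (95% counting interval from 5.70-fold), and nearly all came from library 9 (14.8 CPM, against 1.98 CPM in library 10). Tshz2 was at 18.1 and 24.7 CPM against 3.73 and 1.17 CPM (log2 2.87 ± 0.53, adjusted p = 0.00158). In the other time points it reached 11.7 CPM in saline library 7. H2afx was at 38.3 and 25.7 CPM against 2.98 and 8.20 CPM (2.71 ± 0.40). From the lists, Fezf2 (1.01 ± 0.20), Ppp1r1b, the phosphatase inhibitor DARPP-32 (1.58 ± 0.38), Gabbr1, a GABA-B receptor subunit (0.68 ± 0.13), Uqcrfs1 (1.14 ± 0.19) and Yeats4 (1.56 ± 0.29) were called. No member of the other lists was called at this time point.

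Most of the 98 genes were also higher after cocaine in the other cells of the same libraries, and what these libraries share was not tested. In Exc_22 libraries 9 and 10 were both above every other P60 library for 90 of the 98, which were called for being high there. Saline library 12 was above saline library 11 for 90 of the 98. The median log2 difference of the 98 genes, cocaine minus saline, was 0.92 in Exc_22, 0.73 in the other excitatory cells, 0.76 in inhibitory neurons, 0.73 in endothelial cells, 0.79 in oligodendrocytes and 0.87 in microglia, against -0.05 to 0.09 over all 8780 genes in the cell classes examined. In the 8 other sets of cells both cocaine libraries were above both saline libraries for 55 to 93 of the 98 genes, against 12.7 to 21.3% of all 8780 genes. Gde1, a glycerophosphodiesterase, was at 261 and 269 CPM in libraries 9 and 10, between 63.1 and 129 CPM in the other 7 P60 libraries, and at 597, 305 and 274 CPM at P21. The calls moved with single libraries: 11 genes were called without library 9, all among the 99, and 55 without library 10 (50 shared), while 33 were called without library 11 (22 shared) and 279 without library 12 (94 shared). Without library 9 the adjusted p was 0.0801 for Tshz2 and Akr7a5, 0.108 for H2afx, 0.332 for Fbxl15 and 0.386 for Nmt1, and without library 11 it was 0.43 for Cd74 and 0.21 for Fbxl15.

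**Figure D4:**
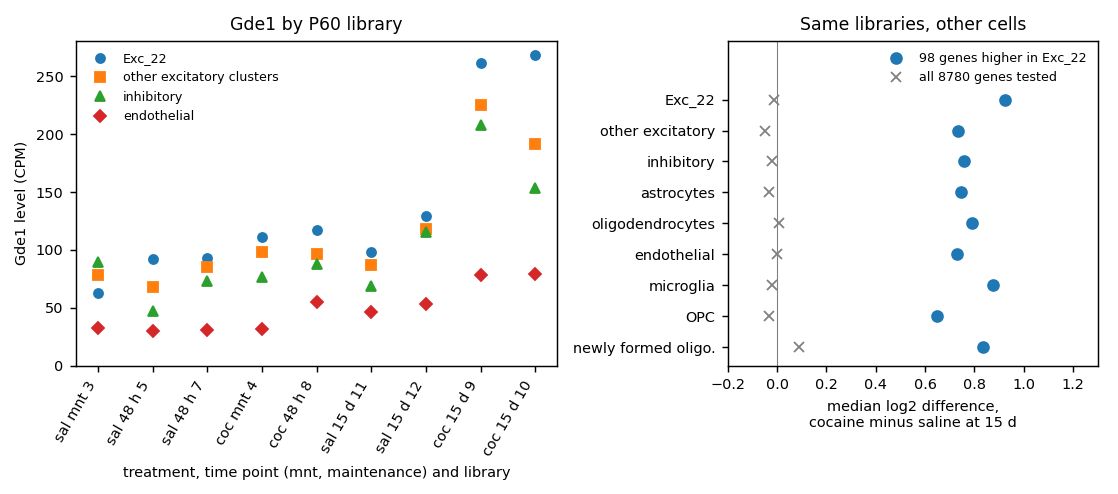
Left, Gde1 level (CPM) in 4 sets of cells for each of the 9 P60 libraries (sal, saline, coc, cocaine, mnt, maintenance). Right, median log2 difference between cocaine and saline at 15 days for the 98 genes higher in Exc_22 (points) and all 8780 genes tested (crosses) in each set of cells, where the 98 genes lie between 0.65 and 0.92.

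Averaged over the time points, 3 of 8780 genes were called (0.0342%), with 717 at an unadjusted p below 0.05 and 0 called by DESeq2. Manf, an endoplasmic reticulum stress factor, was at 106, 125, 118, 120 and 136 CPM in the saline libraries and at 196, 201, 173 and 187 CPM in cocaine libraries 4, 8, 9 and 10. The treatments did not overlap, and the log2 difference was 0.71 ± 0.13 (adjusted p = 0.0203). Manf was also without overlap in the other excitatory cells, at 150 to 177 CPM after saline and 196 to 249 CPM after cocaine. The same held in inhibitory neurons (175 to 214 against 229 to 261 CPM), endothelial cells and oligodendrocytes, so this rise was not particular to Exc_22. In the remaining sets of cells, such as astrocytes and microglia, the treatments overlapped. What the libraries share was not tested for Manf. In Exc_22 Cyp46a1, the neuronal cholesterol 24-hydroxylase, was at 3.32, 23.1, 35.1, 32.0 and 51.5 CPM against 51.2, 79.5, 47.6 and 46.4 CPM (1.79 ± 0.33), with overlap through library 12. Without library 3 its difference was 0.76 (adjusted p = 0.114), and without library 4 it was 0.75 (adjusted p = 0.136). Gde1 was the other call (0.80 ± 0.15). For Manf the adjusted p was 0.0632 to 0.221 without library 7, 8, 9 or 10, with differences of 0.67 to 0.71, and for Cyp46a1 it was 0.0538 to 0.221 without library 8, 9 or 10. For Gde1 it was 0.0670 to 0.0831 without library 7, 9 or 10. Without the 15 day libraries the difference was 0.79 for Manf (adjusted p = 0.18) and 0.56 for Gde1 (adjusted p = 0.838). These are edgeR values.

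The cocaine change differed between Exc_22 and the other excitatory cells for 3 of 13168 genes (0.0228%), 2 with a higher value in Exc_22 (0.0152%) and 1 with a lower one (0.00759%). At an unadjusted p below 0.05 there were 751 genes, and DESeq2 called 0. Cyp46a1 had an interaction of 1.70 ± 0.33 (adjusted p = 0.00113), with 83.2 ± 8.85 and 91.5 ± 8.04 CPM in the other cells after saline and cocaine, and 0.66 without library 3 or library 4 (adjusted p = 0.463 and 0.449) and 1.94 without library 8 (adjusted p = 0.22). The transcript 6330527O06Rik had an interaction of 2.01 ± 0.45 (adjusted p = 0.0483, and 0.09 to 0.856 without library 3, 4, 7, 8, 10 or 12). Deptor had -0.59 ± 0.13 (adjusted p = 0.0252): in Exc_22 it was at 223 ± 22.3 CPM after saline and 189 ± 19.7 CPM after cocaine, and in the other cells at 31.7 ± 6.55 and 36.7 ± 5.21 CPM. Cocaine library 9, at 215 CPM, overlapped the saline libraries. Leaving out library 3, 4, 7, 8, 9, 10 or 11 gave interactions of -0.44 to -0.60 (adjusted p = 0.0617 to 0.856).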

How the data were processed

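Single-cell 3' libraries were counted by the authors with Cell Ranger against mouse build mm9, and the deposited matrices hold UMI counts per gene and cell, used as deposited. By their methods the authors removed cells above 10% mitochondrial reads (a deposited fraction per cell) or above the 99th percentile of genes (as doublets) and cells with few genes. They clustered the P60 cells with Seurat and named P21 cells by their likeness to P60 clusters. Median genes per retained Exc_22 cell in libraries 4, 8 and 12 were 4807, 5177 and 5042. These medians lie above the gene number that the study gives for its 99th percentile. A normalised matrix was not used.

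Exc_22 counts were summed per library, since cells are not replicates. Mitochondrial (13) and ribosomal protein (143) genes did not enter the tests. Libraries with at least 10 Exc_22 cells were tested with edgeR 4.0.16 (filterByExpr, TMM, robust quasi-likelihood, Benjamini-Hochberg adjustment). Called genes had an adjusted p below 0.05 and changed over 1.5-fold. For interactions, library was a block. The authors' own tests used cells as replicates and were not followed. Levels are CPM, counts per 1000000 summed UMIs, and errors are SD over libraries or SE of log2 differences. DESeq2 1.42.0 was an alternative. Shares and medians were tested with exact permutation tests (scipy 1.17.1). The tests were run on simulated counts, recovering 69.5% of 2-fold changes for age and 54.5% at 15 days. Named genes were list members that were called, were among the 3 highest of their list or lay 3-fold from the median cluster, the extreme genes of Exc_22 against the other clusters, the 12 largest rises and falls with age without overlap, and the 5 largest per direction elsewhere. The cluster, gene lists and tests were chosen with earlier results of these data known. Positions are from GENCODE on NCBIM37. Library totals were 8375172 to 42892922 UMIs. Each adult library is 1 pool of mice, so p-values measure the spread between pools. At P21, 3 libraries were analysed, while the study's methods name 4 animals and pools of 2. Whether the P21 libraries came from separate mice is therefore not known, and the tests with age treated them as independent. Intervals cover counting error only. Results on a few genes are not reported here.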

Additional observations from a re-analysis of the deposited data

Results flagged for a closer look

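A library lay far from the others (Dixon's test at the 95% level) in 13 of 75 groups of P60 saline libraries examined. Chance gives about 1 in 20 only for independent groups of normally distributed values. These groups share the same libraries and several rest on few UMIs, so the count cannot be set against that rate. Library 7 had the highest share of Exc_22 among excitatory cells, 5.26%. In Exc_22, library 3 was high for BC048546 (209 CPM), Etv1 (229 CPM), Marcksl1 (43.1 CPM) and Cd74 (6.64 CPM). Library 5 was high for Ptprm (50.8 CPM) and at 0 CPM for Ccnd2. Library 11 was high for Cux2 (2.23 CPM), Tmem215 (0.745 CPM) and Slc7a10 (0.745 CPM), the last 2 values being 1 UMI each. Library 12 was high for Rgs8 (7.03 CPM), Cd24a (1.17 CPM, 1 UMI) and Fbxl15 (16.4 CPM).

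The change with age differed between Exc_22 and the other excitatory cells by the interaction test (edgeR, log2 values). The largest positive differences were in Klf2 (4.03), Aste1 (3.60), Akap12 (3.07), Ctla2a (2.77) and Gsn (2.47), of which Klf2 and Aste1 had 1 UMI and Akap12 3 UMIs in P21 Exc_22. The largest negative ones were in Ctxn3 (-8.34), 1500035N22Rik (-7.93), Syt6 (-7.40), Tmem215 (-4.87) and Slc7a10 (-4.12), with 0, 0, 0, 1 and 1 UMIs in P60 saline Exc_22, so these sizes are fitted values and no bounds. Without the P21 cells of another class, Slc7a10 was at -1.96 (adjusted p = 0.736), Syt6 at -7.27 (adjusted p = 0.0588) and Aste1 at 3.52 (adjusted p = 0.0538). The change with cocaine over the time points differed for 6330527O06Rik (2.01), Cyp46a1 (1.70) and Deptor (-0.59).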

How the results depend on the processing

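No result turned its direction under any alternative run. Counts of called genes under the alternatives that moved them by over 1.5 times, and the range with single libraries left out, were as follows, the cause of each not being tested unless fewer libraries or cells entered. For age (1334), DESeq2 called 780, equal numbers of cells 530 and only the 15 day saline libraries 806, and leaving out single libraries gave 936 to 1345. For maintenance (0), testing without a filter on low counts gave 1. For 48 h (0), no filter gave 7, at least 20 cells 2, equal numbers of cells 5 and single libraries left out 0 to 9. For 15 days (99), DESeq2 called 6, no filter 167, equal cells 25 and single libraries left out 11 to 279. Over the time points (3), DESeq2 called 0, no filter 24, at least 20 cells 12, single libraries left out 0 (without library 9 or 10) to 72 (without library 12), and the fit without the 15 day libraries, added after seeing the data, 8. For the age interaction (91), DESeq2 called 17, no fold threshold 159, equal cells 14, the 3 most similar clusters in place of all others 33, and single libraries left out 55 to 110, lowest without library 7 (57) and P21 library 3 (55). For the cocaine interaction (3), DESeq2 called 0, no fold threshold 6, equal cells 0 and single libraries left out 1 to 6. The difference in median UMIs was 3580 to 6630 with single libraries left out. Use of only excitatory-class cells was also added after seeing the data. Maintenance could not be fitted with at least 20 cells or without libraries 3 or 4, nor 48 h without library 8. No paired analysis was possible because the labels number the libraries 1 to 12 without pairing them across groups.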
